A study of Neogale vison with 6 samples.

Results

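Glycolysis enzymes were examined in Mv1Lu cells, an established epithelial cell line from mink lung, with and without cholesterol depletion (CD). The 10 enzymes were chosen by gene symbol: HK1, HK2, GPI, PFKL, PFKP, ALDOA, TPI1, PGK1, ENO1 and LDHA. The count table held 24526 genes, and 9 of the 10 enzymes had a row in it. LDHA, the A subunit of lactate dehydrogenase, had no row under that symbol and was not analysed here.

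Poly(A) mRNA was sequenced in 3 control libraries of untreated cells and 3 CD libraries. The CD cells had been kept for 16 h in lovastatin (50 μM) and mevalonate (50 μM) with lipoprotein-deficient serum (LPDS, 10%), and the control cells received none of these, so that the effects of the statin, the mevalonate and the serum cannot be told apart. Lovastatin blocks HMG-CoA reductase, the rate-limiting enzyme of cholesterol synthesis. Nothing in the labels says whether the replicates were separate cultures or gives a batch, and the p-values therefore measure the spread between these libraries, which may be technical.

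Glycolysis converts glucose to pyruvate in the cytosol, and lactate dehydrogenase turns pyruvate into lactate while regenerating NAD+. The hexokinase and phosphofructokinase steps are among its most regulated reactions, and each is catalysed by several isoenzymes encoded by separate genes. The enzymes of the lower part, from aldolase to enolase, mostly work near equilibrium and are abundant in proliferating epithelial cells.

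Each control library had 13473820 to 18633764 reads on genes, and each CD library 14426841 to 16309954. Unmapped reads made up 18.4%, 13.6% and 4.25% of control replicates 1 to 3 and 3.54%, 4.33% and 9.37% of CD replicates 1 to 3. Of 12148 genes tested, 5800 passed the threshold of 0.05 on the false discovery rate (FDR) between CD and control, which is 47.7% of them, with 24.8% higher and 22.9% lower. HMGCS1, an early enzyme of the mevalonate pathway that responds to low sterol, was 10.8-fold higher in CD (FDR = 4.17e-07, edgeR). Of the epithelial markers, KRT19 had 883 to 1011 CPM (reads per 1000000 reads on genes, after scaling) in the control and 379 to 533 CPM in CD, CDH1 and EPCAM were under 0.5 CPM in every library, and KRT8 and KRT18 had no row. The 5 fibroblast markers summed to 113 to 144 CPM in the control and 38.9 to 51.6 CPM in CD, most of it COL3A1 (82.5 to 111 CPM and 23.9 to 33.8 CPM), while DCN and LUM did not pass the filter on low counts and had at most 14 reads in any library, with more LUM reads in every CD library (9 to 14) than in any control library (1 to 4). The 4 leukocyte and endothelial markers, nearly all of it CD68, summed to 5.13 to 5.62 CPM in the control and 17.1 to 22.7 CPM in CD. PTPRC, PECAM1 and CDH5 did not pass the filter on low counts and had at most 5 reads in any library. The part of these differences in the results for glycolysis enzymes was not tested.

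Among the 9 enzymes, 3 rose in CD (HK1, PFKP and ALDOA), 1 fell (PFKL) and 5 did not pass the test (HK2, GPI, TPI1, PGK1 and ENO1). This is 44.4% of the enzymes, beside 47.7% of all genes tested. All 9 had passed the filter on low counts. The median log2 fold change of the enzymes was 0.16, beside 0.06 over all genes tested. The libraries of the groups did not overlap in 6 of the 9 enzymes, 4 of them with CD above the control and 2 with CD below, and such separation was seen in 58.0% of all genes tested. Without CD replicate 2 only PFKP was called higher, without any one control library no enzyme was called lower (0 of 9, with an edgeR FDR of 0.0557 to 0.168 for PFKL), and without CD replicate 3 the median was 0.02. PFKP was the only one of the 9 to change by at least 2-fold.

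**Figure D1:**
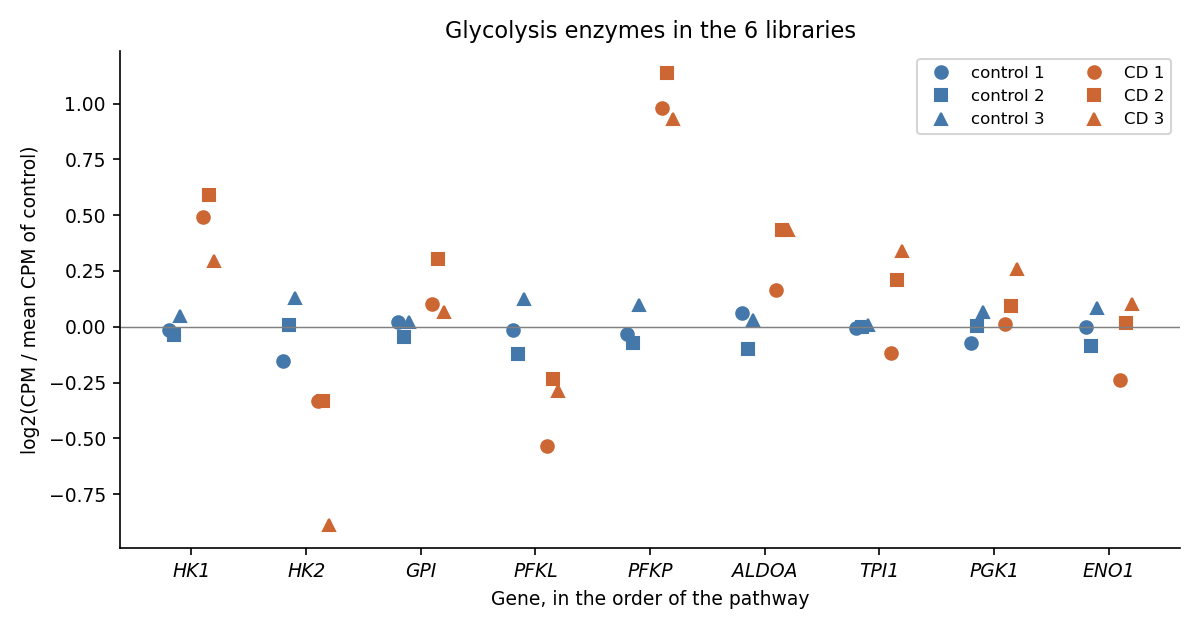
Level of each of the 9 glycolysis enzymes in each library, as the log2 of CPM over the mean CPM of the 3 control libraries. All enzymes share an axis, with one point per library. PFKP separates furthest, at 835 to 939 CPM in the control and 1670 to 1927 CPM in CD, whereas the ENO1 libraries of both groups are interspersed.

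The first step, phosphorylation of glucose, was measured through HK1 (ENSNVIG00000012071) and HK2 (ENSNVIG00000019862). HK1, the isoenzyme found in most tissues, had 454, 447 and 474 CPM in control replicates 1 to 3 and 645, 689 and 563 CPM in CD replicates 1 to 3. All CD libraries were above all control libraries, and the mean was 458 ± 14.2 CPM (SD, n = 3) in the control and 632 ± 64.0 CPM in CD. HK1 rose 1.38-fold (log2 fold change 0.46 ± 0.12 SE, 95% interval 0.20 to 0.73, FDR = 0.00863 by edgeR's quasi-likelihood test with Benjamini-Hochberg adjustment, as all FDR values here). Without CD replicate 2, the highest CD library, its log2 fold change was 0.37 and its edgeR FDR 0.0568, no longer past the threshold. In bulk RNA, where CPM is a share of the library, a difference in the level per cell cannot be told apart from a difference in the share of cells that express the gene.

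HK2, the inducible hexokinase of growing cells and muscle, had 12.0, 13.4 and 14.6 CPM in the control libraries and 10.6, 10.6 and 7.20 CPM in the CD libraries. All CD libraries were below all control libraries, with CD replicate 3 the lowest. The log2 fold change of -0.50 ± 0.20 (SE), with a 95% interval of -0.94 to -0.06, did not pass the adjusted threshold (edgeR FDR = 0.0609), and it passed in 3 of 14 alternative settings, one of them the fit without CD replicate 1 (FDR = 0.0436).

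The ratio of HK2 to HK1 within a library does not depend on the scaling between libraries. Its log2 was -5.24, -5.06 and -5.02 in the control libraries and -5.93, -6.03 and -6.29 in the CD libraries. The groups did not overlap and differed by -0.98 on the log2 scale, a ratio in CD of 0.508 times that in the control (two-sided exact permutation test over libraries, p = 0.1, and 3 against 3 libraries allow no smaller value). ADPGK, which phosphorylates glucose with ADP in place of ATP, fell from 196, 185 and 218 CPM to 124, 126 and 122 CPM (log2 fold change -0.69 ± 0.11 SE, edgeR FDR = 5.71e-04). The hexokinase genes HK3 and HKDC1 did not pass the filter on low counts.

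GPI (ENSNVIG00000019263), the isomerase that turns glucose 6-phosphate into fructose 6-phosphate, had 698, 666 and 698 CPM in the control and 738, 848 and 720 CPM in CD. All CD libraries were above the control libraries, but the nearest ones differed little, and the log2 fold change of 0.16 ± 0.12 (SE), with a 95% interval of -0.10 to 0.42, did not pass the test (edgeR FDR = 0.273).

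The phosphofructokinases showed opposite changes. These isoenzymes carry out the step that commits the sugar to glycolysis and form tetramers of the liver (PFKL), platelet (PFKP) and muscle (PFKM) types. PFKP (ENSNVIG00000010022) had 858, 835 and 939 CPM in the control libraries and 1733, 1927 and 1670 CPM in the CD libraries. Every CD library was far above every control library, and the mean was 877 ± 54.5 CPM (SD, n = 3) in the control and 1777 ± 134 CPM in CD. PFKP rose 2.02-fold (log2 fold change 1.02 ± 0.12 SE, 95% interval 0.75 to 1.29, edgeR FDR = 1.03e-04). The size of this change was greater than that of 80.1% of all genes tested, and it passed in 14 of 14 alternative settings, at 0.93 to 1.07.

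PFKL (ENSNVIG00000007397) had 127, 118 and 140 CPM in the control libraries and 88.6, 109 and 105 CPM in the CD libraries. The groups did not overlap, with means of 128 ± 11.2 CPM (SD, n = 3) and 101 ± 10.9 CPM, although control replicate 2 and CD replicate 2 lay close. PFKL fell to 0.786 times the control level (log2 fold change -0.35 ± 0.12 SE, 95% interval -0.63 to -0.07, edgeR FDR = 0.0415). This change passed the test narrowly. The edgeR FDR was 0.111, 0.0557 and 0.168 without control replicates 1, 2 and 3 respectively, and 0.0866 without CD replicate 1, with log2 fold changes of -0.41 to -0.25.

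PFKM, which was not among the 10 enzymes, fell more than PFKL, from 175, 180 and 201 CPM to 111, 109 and 98.2 CPM (log2 fold change -0.80 ± 0.11 SE, edgeR FDR = 2.70e-04). The log2 ratio of PFKP to PFKL was 2.76, 2.83 and 2.74 in the control libraries and 4.29, 4.14 and 4.0 in the CD libraries. The CD libraries were all higher, by 1.37 on the log2 scale or 2.58-fold (two-sided exact permutation test over libraries, p = 0.1, the lower limit of this design). The log2 ratio of PFKM to PFKL, a comparison chosen after the values were seen, was 0.46, 0.61 and 0.52 in the control and 0.32, 0.00 and -0.09 in CD, lower in CD by 0.45 on the log2 scale (-0.45, exact permutation test, two-sided, p = 0.1).

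**Figure D2:**
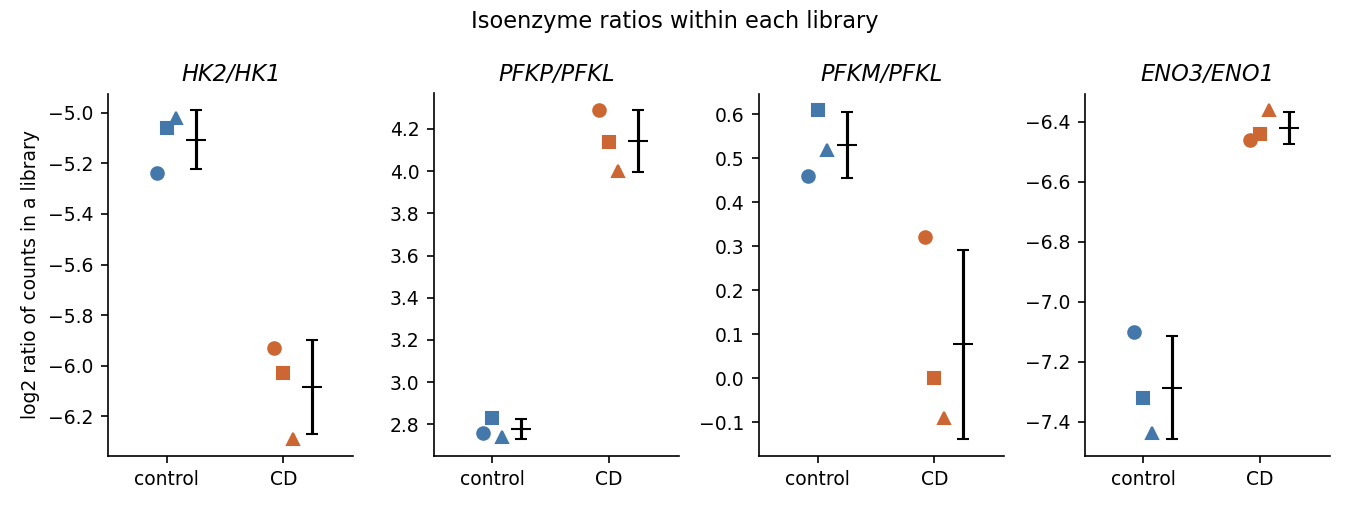
Log2 ratio of the levels of paired isoenzymes within each library, one point per library with a bar at the group mean, for HK2 to HK1, PFKP to PFKL, PFKM to PFKL and ENO3 to ENO1, each panel with its own vertical axis. In every panel the 3 CD libraries lie apart from the 3 control libraries, above them for PFKP to PFKL (difference 1.37) and ENO3 to ENO1 (0.87) and below them for HK2 to HK1 (-0.98) and PFKM to PFKL (-0.45).

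ALDOA (ENSNVIG00000000386), the aldolase that splits fructose 1,6-bisphosphate into triose phosphates, had 1878, 1683 and 1841 CPM in the control libraries and 2020, 2432 and 2434 CPM in the CD libraries. The CD libraries were all higher, and CD replicate 1 was nearest to the control. ALDOA rose 1.27-fold (log2 fold change 0.35 ± 0.13 SE, 95% interval 0.06 to 0.64, edgeR FDR = 0.0492). The call stood at the threshold. It held in 5 of 14 alternative settings, and leaving out any one of the control libraries, CD replicate 2 or CD replicate 3 ended it (log2 fold change 0.27 to 0.38, edgeR FDR 0.0559 to 0.202). ALDOC did not pass the filter on low counts.

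The members TPI1 and PGK1 did not pass the test. TPI1 (ENSNVIG00000024626), the triose-phosphate isomerase, had 1016, 1020 and 1025 CPM in the control and 940, 1181 and 1292 CPM in CD. The control libraries were nearly equal, while CD replicate 1 was below them and CD replicates 2 and 3 were above (log2 fold change 0.16 ± 0.14 SE, 95% interval -0.15 to 0.46, edgeR FDR = 0.374). GAPDH, the next enzyme of the pathway, had no row under that symbol. PGK1 (ENSNVIG00000023554), the first enzyme of the pathway to make ATP, had 593, 625 and 653 CPM in the control and 630, 666 and 747 CPM in CD, which overlapped (log2 fold change 0.13 ± 0.12 SE, 95% interval -0.13 to 0.39, edgeR FDR = 0.393).

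Phosphoglycerate mutase, which moves the phosphate group of 3-phosphoglycerate, was not among the 10 enzymes. Its widespread form PGAM1 fell from 601, 656 and 640 CPM to 518, 494 and 456 CPM (log2 fold change -0.37 ± 0.11 SE, edgeR FDR = 0.0197), with an FDR of up to 0.0731 and no call when any one control library was left out. The muscle form PGAM2 had 0, 4 and 4 reads in the control and 16, 16 and 18 reads in CD. It passed the filter on low counts through the CD libraries alone, so these reads are given as a description. BPGM, which makes 2,3-bisphosphoglycerate and is entered in the table as PMGE, rose from 7.81, 9.61 and 9.15 CPM to 19.5, 16.9 and 18.4 CPM, with no overlap of the groups (log2 fold change 1.04 ± 0.16 SE, edgeR FDR = 5.80e-04).

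ENO1 (ENSNVIG00000006341), the enolase expressed in most tissues, had 4900, 4629 and 5201 CPM in the control libraries and 4162, 4964 and 5273 CPM in the CD libraries. The lowest and the highest library were both CD libraries, and the log2 fold change was -0.03 ± 0.14 (SE), with a 95% interval of -0.35 to 0.28 (edgeR FDR = 0.865). Its size was greater than that of only 3.67% of all genes tested.

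The other enolases rose. ENO2, the form known from neurons, had 27.6, 23.9 and 29.0 CPM in the control and 36.8, 40.9 and 38.9 CPM in CD (log2 fold change 0.53 ± 0.13 SE, edgeR FDR = 0.00822). ENO3, the form known from muscle, had 35.7, 29.0 and 30.0 CPM in the control and 47.4, 57.3 and 64.2 CPM in CD (log2 fold change 0.84 ± 0.15 SE, edgeR FDR = 0.00134). The groups did not overlap in either gene. The log2 ratio of ENO3 to ENO1, also chosen after the values were seen, was -7.10, -7.32 and -7.44 in the control and -6.46, -6.44 and -6.36 in CD, higher in CD by 0.87 (two-sided exact permutation test over libraries, p = 0.1, the lower limit of this design).

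PKM, the pyruvate kinase of most tissues outside liver and red blood cells, closed the sequence. It fell from 4223, 4041 and 4497 CPM in the control to 2545, 2878 and 2555 CPM in CD, a level of 0.625 times that of the control (log2 fold change -0.68 ± 0.13 SE, 95% interval -0.96 to -0.39, edgeR FDR = 0.00171). The groups were widely separated. PKM is spliced into isoforms known as M1 and M2, and the counts per gene do not tell them apart. LDHB had no row under its symbol, and LDHC and PKLR did not pass the filter on low counts.

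**Figure D3:**
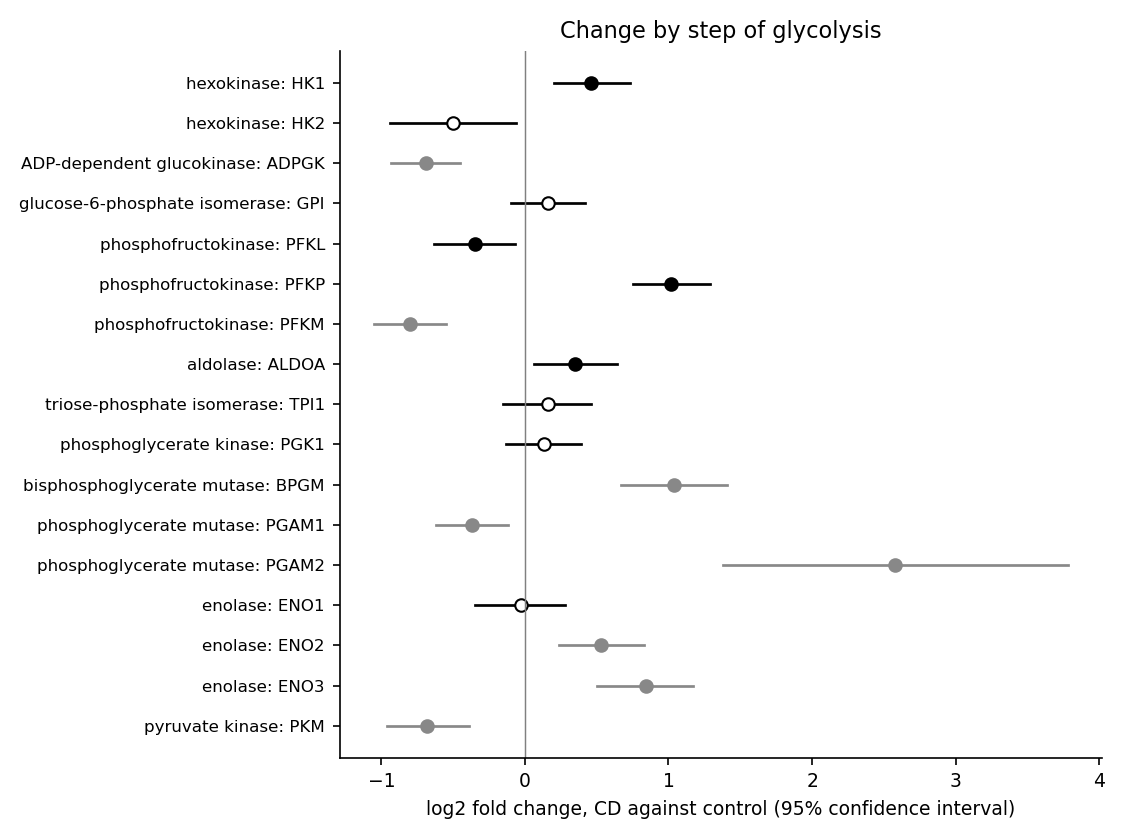
Log2 fold change of CD against control for each tested glycolysis gene in the order of the pathway, with 95% intervals; black marks the 9 enzymes and grey the other glycolysis genes, and filled points passed an edgeR FDR of 0.05. PFKP at 1.02 lies opposite PFKM at -0.80 and PFKL at -0.35 at the same step, and PKM at -0.68 is the last point of the sequence.

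The list of other glycolysis genes held 18 symbols, of which 16 had a row and 8 passed the filter on low counts. All 8 passed the test, 4 higher (PGAM2, BPGM, ENO2 and ENO3) and 4 lower (ADPGK, PFKM, PGAM1 and PKM), with a median log2 fold change of 0.08. PGAM2 could be tested only because of its reads in CD, so this count is a description and supports nothing about the list. Over both lists, 7 of 17 tested genes were called higher, PGAM2 included, and 5 lower, beside 24.8% and 22.9% of all genes tested. At the phosphofructokinase step, the called genes included both higher (PFKP) and lower ones (PFKL and PFKM).

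Among the CD libraries, ALDOA, TPI1, PGK1 and ENO1 were lowest in replicate 1 and highest in replicate 3. Of the CD libraries, replicate 3 was the lowest for HK1, HK2, GPI and PFKP. The order of the CD libraries thus differed among the enzymes. The summed level of the 9 enzymes was 10536, 10036 and 10985 CPM in the control libraries and 10966, 12828 and 12810 CPM in the CD libraries, and CD replicate 1 fell within the control range (mean 10519 ± 475 CPM, SD, n = 3, and 12201 ± 1070 CPM).

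The share of unmapped reads also differed among libraries. In a comparison added after the data were seen, limited to the 3 libraries with under 5% unmapped reads (control replicate 3 against CD replicates 1 and 2), PFKP (0.94, edgeR FDR = 4.41e-04) and PFKL (-0.52, FDR = 0.035) kept their calls. HK1 had a log2 fold change of 0.47 (edgeR FDR = 0.0792) and ALDOA 0.26 (FDR = 0.406). The lone control library was there assumed to vary like the CD libraries.

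**Figure D4:**
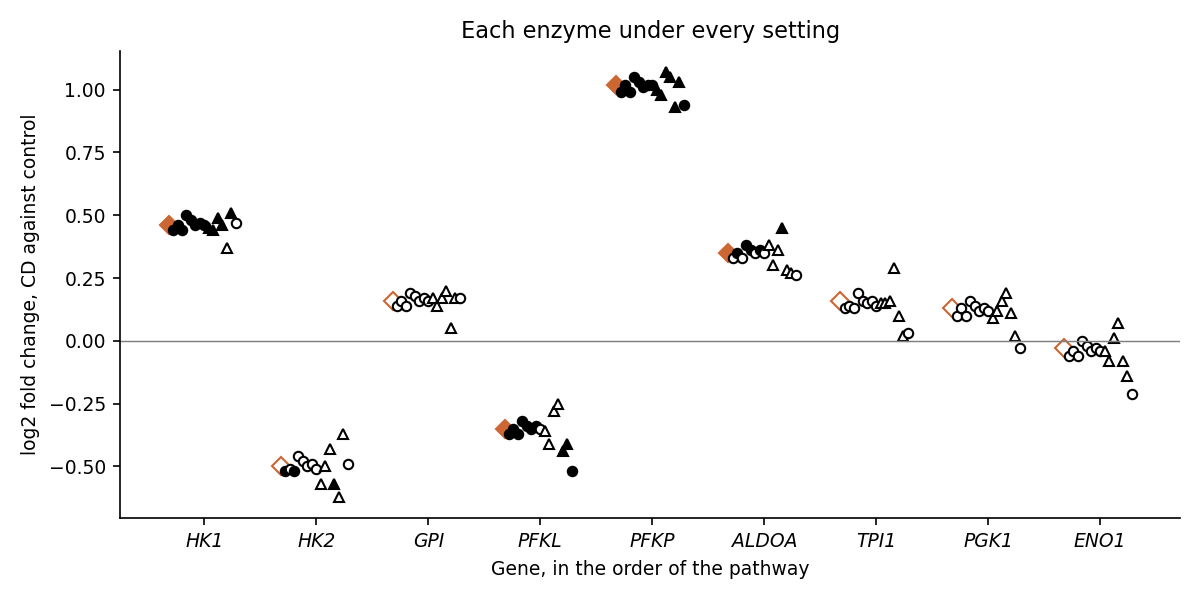
Log2 fold change of each of the 9 enzymes in the reported fit (orange diamond) and in the 14 alternative settings, filled where the FDR was under 0.05. Triangles are fits with 1 library left out and circles the other settings. The last circle is the fit on the 3 libraries with few unmapped reads, which is not among the 14. All marks of PFKP are filled and lie between 0.93 and 1.07, whereas those of ALDOA are filled in only 5 of 14 alternative settings and those of ENO1 lie on both sides of 0.

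Genes that regulate the pathway were examined next. Of 10 listed, 7 were tested, of which 5 rose and the other 2 did not pass the test, beside 24.8% higher and 22.9% lower of all genes tested, with a median log2 fold change of 0.67. PFKFB3, whose product makes fructose 2,6-bisphosphate, the main activator of phosphofructokinase, had 50.3, 45.7 and 56.7 CPM in the control and 196, 187 and 111 CPM in CD. It rose 3.24-fold (log2 fold change 1.69 ± 0.20 SE, edgeR FDR = 1.07e-04), and CD replicate 3 was the nearest to the control. PFKFB4, a related kinase and phosphatase, rose from 51.2, 46.8 and 55.9 CPM to 87.9, 95.8 and 89.9 CPM (log2 fold change 0.83, edgeR FDR = 2.97e-04).

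MYC, a transcription factor known to bind many glycolysis genes, rose from 21.6, 21.5 and 20.9 CPM to 41.4, 42.8 and 41.1 CPM, with little spread within either group (log2 fold change 0.97 ± 0.12 SE, edgeR FDR = 1.43e-04). TIGAR, which lowers fructose 2,6-bisphosphate, rose 1.59-fold (log2 fold change 0.67, edgeR FDR = 0.0134), with an FDR of up to 0.0588 without control replicate 1 or 3. The remaining called gene, named after its values were seen, was HIF1A, the oxygen-regulated subunit of the hypoxia-inducible factor. It had 67.4, 61.7 and 58.0 CPM in the control and 134, 94.9 and 62.5 CPM in CD. The groups overlapped, since CD replicate 3 lay within the control range, and the call (log2 fold change 0.64 ± 0.23 SE, edgeR FDR = 0.0424) held in 6 of 14 alternative settings and was lost without any one library other than CD replicate 3 (FDR up to 0.143).

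Of 7 transporters and their partners, 3 were tested and 1 fell (33.3% called, beside 47.7% of all genes tested). SLC2A1, which encodes the basal glucose transporter GLUT1, had 1042, 951 and 1125 CPM in the control and 745, 809 and 789 CPM in CD. Every CD library was below every control library (log2 fold change -0.41 ± 0.12 SE, edgeR FDR = 0.0155), and the call was lost without control replicate 1 or 3 (FDR up to 0.074). SLC2A4 (-0.78, edgeR FDR = 0.084) and SLC16A3 (-0.14, FDR = 0.678) did not pass the test, and neither exceeded 3.25 CPM in any library. SLC2A3, SLC16A1 and BSG had no row under their symbols.

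For the fate of pyruvate in mitochondria, 12 of 14 listed genes were tested, of which 5 rose and the other 7 did not pass (41.7% called, beside 47.7% of all genes tested), with a median log2 fold change of 0.38. PDHB and DLAT, subunits of the pyruvate dehydrogenase complex, rose by 0.72 and 0.56 on the log2 scale (edgeR FDR = 0.00112 and 0.00785). PDK2 and PDK4, kinases that inactivate the complex, rose as well. PDK2 had 236, 205 and 214 CPM in the control and 352, 410 and 392 CPM in CD (log2 fold change 0.82, edgeR FDR = 2.72e-04), and PDK4 1.79, 3.25 and 1.76 CPM and 8.54, 7.30 and 3.75 CPM (1.54, FDR = 0.00492). The last called gene, named after its values were seen, was PDP1, a phosphatase that reactivates the complex (1.28, edgeR FDR = 0.00961). The called genes thus included subunits, inhibitors and an activator of the complex.

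Of 7 genes of the pentose phosphate pathway, which branches from glucose 6-phosphate and yields NADPH and ribose, 6 were tested, 1 rose and 2 fell (50.0% called, near the 47.7% of all genes tested), with a median log2 fold change of -0.12. PGD, in the oxidative branch, rose from 730, 673 and 814 CPM to 921, 1070 and 965 CPM (log2 fold change 0.42, edgeR FDR = 0.0195). In the non-oxidative branch, TALDO1 fell by 0.43 (edgeR FDR = 0.0184) and RPIA by 0.45 (FDR = 0.0395), and TKT had a log2 fold change of -0.21 (FDR = 0.194). Each of these calls was lost when single libraries were left out, with an FDR of up to 0.107 for PGD (without CD replicate 2, or control replicate 1 or 2), 0.0691 for TALDO1 (without control replicate 1 or 3) and 0.147 for RPIA (without any library other than CD replicate 3).

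Of 6 genes of gluconeogenesis, the route from pyruvate back to glucose, 2 were tested and both fell, beside 22.9% of all genes tested. G6PC3, a glucose-6-phosphatase found outside the liver as well, had 154, 133 and 158 CPM in the control and 80.6, 93.6 and 90.3 CPM in CD, which did not overlap (log2 fold change -0.75, edgeR FDR = 5.89e-04). PCK2, the mitochondrial phosphoenolpyruvate carboxykinase, had a log2 fold change of -0.33 (edgeR FDR = 0.0423), and its call was lost without any library other than control replicate 2 or CD replicate 3 (FDR up to 0.182).

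**Figure D5:**
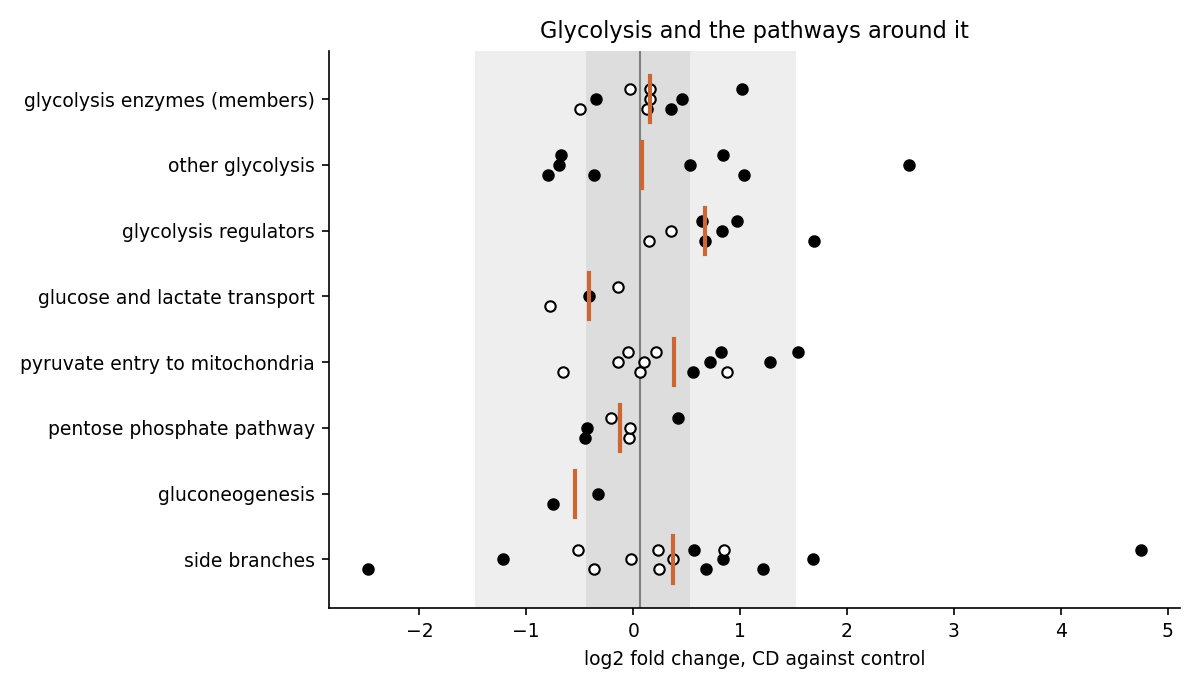
Log2 fold change of each tested gene (points) in each gene list, with the list's median in orange; the shaded bands span the 5th to 95th and the 25th to 75th percentiles of all genes tested, and the grey line is their median of 0.06. The median of the 9 enzymes (0.16) and that of the other glycolysis genes (0.08) lie near the grey line, and that of the regulators is 0.67; the bands show the spread of single genes and are no reference for a median.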

How the data were processed

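Per the labels, Nextera XT libraries were prepared from poly(A) mRNA, and the submitters' processing notes name fastp 0.20.1, STAR 2.7.2a, R 4.0.3 and DESeq2 1.30.1, and the methods of the paper name the mink assembly NNQGG.v01. The counting program and its strand setting are not given in the sources used here, so reads of overlapping genes and of closely related isoenzyme genes are uncertain. The authors deposited raw read counts per gene, with Ensembl identifiers and symbols. Rows that name no gene (29.3% to 47.2% of reads) were left out. The normalized expression files were not used, because their identifiers cannot be paired with the values.

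The count test was edgeR 4.0.16 (run in R 4.3.3), with filterByExpr defaults (minimum count 10, minimum total 15), TMM scaling, and robust glmQLFit and glmQLFTest on the condition over all 6 libraries. P-values were Benjamini-Hochberg adjusted over 12148 genes and called at 0.05. CPM used the TMM-scaled library sizes, and log2 fold changes had a median standard error of 0.18, the precision given by this depth and 3 libraries per group. Isoenzyme ratios were compared by exact permutation over libraries. The test was also run on simulated data in which few genes changed. That check does not cover a comparison like this one, with 47.7% of the genes called. Alternatives were DESeq2 1.42.0, limma-voom (limma 3.58.1), other scalings and filters, the replicate block, and each library left out.

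The members and lists were chosen with earlier results of these data known. Named were all members, every tested gene of the other glycolysis list, and at most 4 genes per further list, those with the smallest FDR, with exceptions stated. BPGM, DLD, GBE1 and SLC16A7 were matched through the description column after the table was seen. The LDHA to LDHB ratio and a promoter motif search had been planned and were not run. The mink annotation at hand is of assembly ASM_NN_V1, so no coordinates, lengths or sequences are given and levels of different genes are not compared. Some items are not reported here.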

Additional observations from a re-analysis of the deposited data

How the results depend on the processing

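The isoenzyme ratios kept their direction with 0.5 added to each count. Leaving out a library could not have reversed it, since the groups did not overlap, and the replicate block leaves the difference of means unchanged. The counts over all genes and of other glycolysis genes stayed within 1.5 times of those reported in each of the 14 alternative settings. Genes called higher outnumbered those called lower in the reported fit (3016 and 2784) but not with DESeq2 size factors in edgeR (2892 and 2905), without CD replicate 2 (2498 and 2531) or with the libraries of few unmapped reads (2411 and 2438). PFKP was called in 14 of 14 alternatives and HK1 in 13, while ALDOA was called in 5 and PFKL in 9. The number of enzymes called lower was 2 with DESeq2 and 2 with DESeq2 size factors in edgeR, where HK2 was added (FDR = 0.0449 and 0.0467). With the replicate block it was 0, where PFKL had an edgeR FDR of 0.0764, and the number called higher was 2, where ALDOA had an FDR of 0.123. Deviations from the group mean had correlations of -0.024, -0.329 and -0.185 across genes between same-numbered control and CD libraries. Between libraries of unlike number they were -0.024 to 0.26. With 3 libraries per group, these values do not settle whether the numbers pair the samples. The replicate block called 2772 genes higher and 2636 lower. With single libraries left out, the enzymes called lower numbered 0 (without control replicate 1, 2 or 3) to 1, which was HK2 in place of PFKL without CD replicate 1, those called higher 1 (without CD replicate 2) to 3, their median log2 fold change was 0.02 (without CD replicate 3) to 0.20 (without CD replicate 1), and ENO1 had log2 fold changes of -0.14 to 0.07, with 0.01 without control replicate 3 and 0.07 without CD replicate 1. With the 3 libraries of few unmapped reads, chosen after seeing the data, 1 enzyme was called higher, the median was 0.03 and PGK1 had -0.03. The cause of these differences was not tested. The LDHA to LDHB alternatives were not run.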

Other observations

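Genes of the routes that leave glycolysis at its intermediates moved in both directions. Of 15 listed genes of serine synthesis, glycogen metabolism, hexosamine synthesis and glycerol phosphate, all 15 were tested, 6 were called higher and 2 lower (53.3% called, near the 47.7% of all genes tested), with a median log2 fold change of 0.37. PSAT1, the aminotransferase of serine synthesis from 3-phosphoglycerate, had 43.7, 42.0 and 42.6 CPM in the control libraries and 7.5, 7.79 and 7.71 CPM in the CD libraries. It fell to 0.179 times the control level, with little spread within either group (log2 fold change -2.48 ± 0.14 SE, edgeR FDR = 7.81e-07). PHGDH, the first enzyme of the same route and named after its values were seen, fell from 409, 397 and 427 CPM to 158, 179 and 191 CPM (log2 fold change -1.22, edgeR FDR = 2.09e-05). PSPH, the last enzyme of the route and also named after its values were seen, had 72.3, 89.3 and 73.8 CPM in the control and 81.7, 73.9 and 122 CPM in CD, which overlapped, and did not pass the test (log2 fold change 0.24, edgeR FDR = 0.318).

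PGM2, a phosphoglucomutase that also acts on pentose phosphates, had 22.4, 22.9 and 21.1 CPM in the control and 78.2, 64.9 and 69.5 CPM in CD (log2 fold change 1.68, edgeR FDR = 5.59e-06). PYGL, the liver form of glycogen phosphorylase, had 59.2, 61.4 and 56.0 CPM in the control and 138, 137 and 133 CPM in CD (log2 fold change 1.21, edgeR FDR = 1.37e-05). GFPT2, an enzyme that starts hexosamine synthesis from fructose 6-phosphate, had 2, 1 and 3 reads in the control and 68, 46 and 58 reads in CD. It passed the filter on low counts through the CD libraries alone, so its values are a description, and it is one of the 6 called higher. The groups did not overlap in any of these genes other than PSPH. Each of PSAT1, PHGDH, PGM2 and PYGL was called in 14 of 14 alternative settings.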
